A study of Mus musculus with 32 samples.

Results

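Integrins are receptors of an alpha and a beta chain that hold cells to the extracellular matrix, and laminins, collagen IV, nidogens and perlecan are the proteins that build the basement membrane, the matrix sheet to which many integrins bind. Probe sets for these genes were chosen by a rule on gene names that uses no values, although earlier results of these data were known. The rule asked for a single current symbol for an integrin alpha or beta chain, a laminin chain, a collagen IV chain (Col4a1 to Col4a6), Nid1 or Nid2, or Hspg2. The rule took 48 of the 35556 probe sets on the array, for 47 genes. They were 19 probe sets for 18 integrin alpha chains, 9 for integrin beta chains, 5, 3 and 2 for laminin alpha, beta and gamma chains, 6 for collagen IV, 2 for nidogens, 1 for perlecan (Hspg2) and 1 for Itgb3bp. Itgb3bp meets the name rule but encodes a nuclear protein of the centromere that was named for binding an integrin tail, and it is described apart from the other 47 probe sets.

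In RiboTag mice a hemagglutinin (HA) tag is switched on in a ribosomal protein wherever Cre recombinase acts, so that anti-HA immunoprecipitation (IP) of a testis homogenate pulls down polysomes of the Cre-expressing cells, and the input is the homogenate before IP. All mice were adult double heterozygotes of RiboTag with AMH-Cre, which acts in Sertoli cells, or with Cyp17iCre, which acts in Leydig cells, and every value is the log2 RMA signal of a probe set on 1 array. The AMH-Cre:RiboTag arrays were 5 inputs and 5 IPs after saline, and 2 IPs each after acyline, acyline+FSH for 1 h, acyline+FSH for 4 h, cetrorelix, and cetrorelix with testosterone for 4 h. Acyline and cetrorelix are GnRH antagonists that suppress gonadotropin release, and they were given over 3 days. By the study's serum assays they strongly lowered FSH, but some FSH remained. The Cyp17iCre:RiboTag arrays were 3 inputs and 3 IPs after saline, and 2 IPs each after acyline over 4 days, and after acyline followed by human LH for 1 h or 4 h. The 4 arrays with cetrorelix were read as IPs, as their titles and sample types say, although a source label calls them input. By the study's staining, scattered cells inside the tubules also carried the tag in Cyp17iCre:RiboTag testes, which limits that line as a model of Leydig cells alone. From its ratios of IP to input mRNA the study took those scattered cells to be Sertoli cells. Below, Sertoli and Leydig name the IPs or inputs of the AMH-Cre and the Cyp17iCre line.

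As background, a laminin is a trimer of an alpha, a beta and a gamma chain, and laminin and collagen IV each form a network that nidogens and perlecan join. In the testis a basement membrane lies under the Sertoli cells and spermatogonia of each seminiferous tubule, between them and the peritubular myoid cells, and Leydig cells lie outside it in the interstitium. Sertoli cells also use integrins at their contacts with developing spermatids, where laminin chains have been described as partners. Integrin beta1 (Itgb1) pairs with many alpha chains, among them the laminin receptors alpha3, alpha6 and alpha7 and the collagen receptors alpha1, alpha2, alpha10 and alpha11, while alphav (Itgav) pairs with beta1, beta3, beta5, beta6 or beta8 to bind ligands with an RGD motif.

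Of 14 Sertoli markers tested all 14 were called higher in the Sertoli IPs than in their inputs, and of 8 Leydig markers all 8 were called higher in the Leydig IPs. In the Leydig IPs 2 Sertoli markers, Gata4 and Trf, were also called higher, and the summed linear signal of the Sertoli markers lay between 15412 and 16634 against 9319 to 9704 in the Leydig inputs. The other 12 Sertoli markers were not called there, and the median ratio of the list was 1.08-fold. Of the Leydig markers 7 were called lower in the Sertoli IPs and Nr5a1 higher, and they summed to 2926 to 3590 in the Sertoli IPs against 7533 to 9542 in the Sertoli inputs. Of 12 spermatid markers 8 were called lower after the Sertoli IP and 11 after the Leydig IP. Of 15 probe sets for spermatogonia and spermatocytes 12 were called lower after the Sertoli IP and 9 after the Leydig IP, where Kit, which Leydig cells are also known to express, and Zbtb16 were called higher. The peritubular myoid list had 2 probe sets called higher (Myh11 and Myl9) and 2 called lower (Acta2 and Actg2) of 8 in the Sertoli IPs, where its sum was 4231 to 4742 against 4146 to 4562 in the inputs. In the Leydig IPs it had 1 higher (Myh11) and 2 lower (Acta2 and Actg2), with a sum of 2348 to 2717 against 4007 to 4233. Of 8 endothelial probe sets tested none was called in either IP by limma. The part of other cell types in the results below was not tested.

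Enrichment is the ratio of IP to input after saline, fitted with limma on all probe sets with a linear signal over 50 on any array of the fit, and called at a Benjamini-Hochberg adjusted p under 0.05 with a fold of at least 2. In the Sertoli fit 44 of the 48 probe sets were tested, 8 were called higher and 4 lower. Those shares are 18.2% and 9.09%, beside 12.4% and 11.7% of all 24797 probe sets tested. The 8 higher were Itga6, Nid1, Itgb5, Itgav, Lama1, Itgb1, Lamc1 and Lama3. The 4 lower were Lamb1, Lama2, Itga1 and Itgb3bp. In the Leydig fit 45 were tested, 10 were called higher (22.2%) and 2 lower (4.44%), beside 11.0% and 10.7% of all 24705 tested. The 10 higher were Lamb2, Lamb1, Lamc1, Itga3, Lama4, Itgav, Itgb1, Itga9, Lamc3 and Itgb5, and the 2 lower were Itga1 and Itgb3bp. The median log2 ratio of the tested members was -0.047 for the Sertoli line and 0.18 for the Leydig line, beside -0.026 and -0.029 over all probe sets tested. Called higher in both IPs were Itgav, Itgb1, Itgb5 and Lamc1. The share of all probe sets called higher in both IPs was not computed, so this overlap is given as a list only. In these bulk samples fewer cells of a type and less RNA per cell cannot be told apart.

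**Figure D1:**
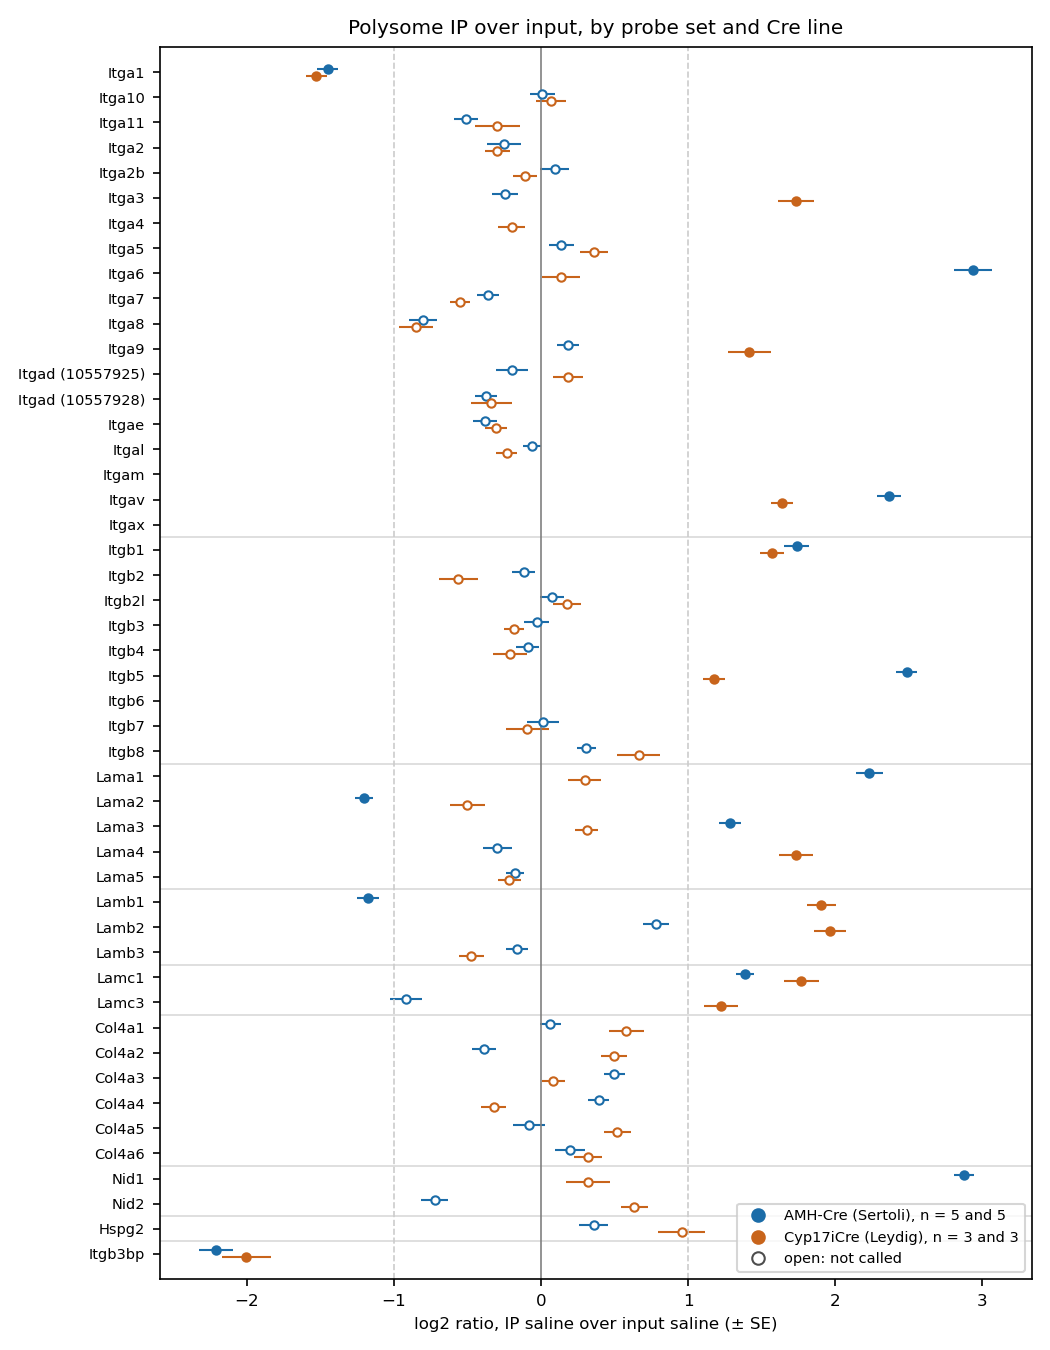
Log2 ratio of IP over input after saline with its SE on the x axis, 1 row per probe set grouped by family, blue for AMH-Cre (Sertoli, 5 IPs and 5 inputs) and orange for Cyp17iCre (Leydig, 3 and 3). Filled points passed the fold of 2 and the adjusted p, dashed lines mark that fold, and rows or points left out were not tested. Itga6 and Nid1 lie farthest right in blue, Lamb1 lies on opposite sides of 0 in the 2 colours, and the 6 collagen IV rows hold open points only.

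Whether the ratio differed between the Cre lines was tested as an interaction over the 16 saline arrays. Of 45 members tested 7 had a higher ratio in the Leydig line (15.6%) and 4 in the Sertoli line (8.89%), at a fold of at least 2 and an adjusted p under 0.05, beside 5.48% and 5.98% of all 25524 probe sets tested. Higher in the Leydig line were Lamb1, Lamc3, Lama4, Itga3, Nid2, Itga9 and Lamb2. Higher in the Sertoli line were Itga6, Nid1, Lama1 and Itgb5. The inputs lay closer together than the IPs. The difference between the mean Leydig and mean Sertoli input lay between -0.21 and 0.33 (log2) over the 48 probe sets, while that between the IPs lay between -2.67 and 3.08.

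Of the laminin-binding integrin chains, Itga6 had a higher ratio in the Sertoli line and Itga3 in the Leydig line, while Itga7, Itgb1 and Itgb4 had no called difference between the lines. Itga6, the alpha6 chain of a laminin receptor, read 7.62, 7.18, 7.08, 7.68 and 7.13 in the 5 Sertoli inputs and 10.50, 10.09, 10.34, 10.23 and 10.23 in the 5 Sertoli IPs. Every IP lay above every input, a ratio of 7.66-fold (log2 ratio 2.94 ± 0.13 SE, adjusted p = 1.49e-09). Its Leydig inputs read 7.70, 7.61 and 7.70 and its Leydig IPs 7.51, 7.88 and 8.03. Those groups overlapped, with a ratio of 1.1-fold (log2 ratio 0.14 ± 0.13 SE, adjusted p = 0.401). The difference between the lines, Leydig minus Sertoli here and below, was -2.80 ± 0.21 SE (adjusted p = 1.72e-08) on the log2 scale.

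Itga3, the alpha3 chain of another laminin receptor, went with the other line. Its Sertoli inputs read 6.48, 6.34, 6.28, 6.31 and 6.43 and its Sertoli IPs 5.83, 6.14, 6.12, 6.33 and 6.19, which overlapped, at 0.844-fold (log2 ratio -0.25 ± 0.088 SE, adjusted p = 0.0261). Its Leydig inputs read 6.37, 6.46 and 6.33 and its Leydig IPs 8.0, 8.40 and 7.97. All 3 Leydig IPs lay above all other saline arrays, a ratio of 3.33-fold (log2 ratio 1.74 ± 0.12 SE, adjusted p = 7.75e-06), and the difference between the lines was 1.98 ± 0.15 SE (adjusted p = 2.96e-08) on the log2 scale. Itga7, the alpha7 chain known from muscle, read 6.81, 7.07, 7.08, 6.97 and 6.93 in the Sertoli inputs and 6.48, 6.59, 6.66, 6.54 and 6.77 in the IPs. In the Leydig line it read 6.80, 6.80 and 6.79 against 6.22, 6.21 and 6.31. The IPs were below the inputs in both lines, by less than a fold of 2, at 0.777-fold (log2 ratio -0.36 ± 0.075 SE, adjusted p = 0.000869) and 0.683-fold (log2 ratio -0.55 ± 0.069 SE, adjusted p = 0.0002). Itgb4, the beta4 chain that pairs with alpha6, overlapped between IP and input in both lines, at 0.938-fold (log2 ratio -0.09 ± 0.080 SE, adjusted p = 0.326) and 0.864-fold (log2 ratio -0.21 ± 0.11 SE, adjusted p = 0.148).

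Itgb1, the common beta chain, was enriched in both IPs. Before and after IP it read 9.03, 8.65, 8.76, 9.04 and 8.90 and 10.72, 10.66, 10.63, 10.50 and 10.54 in the Sertoli line, and 9.07, 8.96 and 9.15 and 10.56, 10.63 and 10.70 in the Leydig line. The ratios were 3.33-fold (log2 ratio 1.74 ± 0.084 SE, adjusted p = 3.01e-09) and 2.96-fold (log2 ratio 1.57 ± 0.081 SE, adjusted p = 1.6e-06). Their difference was -0.17 ± 0.13 SE (adjusted p = 0.34) on the log2 scale, which did not pass the test. Itgav, the alphav chain, read 7.53, 7.32, 7.24, 7.50 and 7.34 against 9.85, 9.83, 9.85, 9.61 and 9.61 in the Sertoli line and 7.58, 7.61 and 7.48 against 9.14, 9.20 and 9.24 in the Leydig line. Every IP exceeded every input, at 5.14-fold (log2 ratio 2.36 ± 0.080 SE, adjusted p = 2.69e-10) and 3.11-fold (log2 ratio 1.64 ± 0.073 SE, adjusted p = 8.69e-07). The ratio was lower in the Leydig line by a log2 difference of -0.73 ± 0.12 SE, below the fold of 2 needed for a call.

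Itgb5, a partner of alphav that binds vitronectin, read 9.47, 9.21, 9.33, 9.41 and 9.52 in the Sertoli inputs and 11.99, 11.91, 11.83, 11.85 and 11.78 in the Sertoli IPs. The Leydig inputs read 9.18, 9.31 and 9.27 and the Leydig IPs 10.36, 10.48 and 10.44. It was called higher in both, at 5.59-fold (log2 ratio 2.48 ± 0.071 SE, adjusted p = 1.29e-10) and 2.26-fold (log2 ratio 1.18 ± 0.074 SE, adjusted p = 4.34e-06), and its ratio was called lower in the Leydig line, at -1.31 ± 0.10 SE (adjusted p = 3.94e-08). Of the other beta chains that pair with alphav, Itgb3 had log2 ratios of -0.03 and -0.18, Itgb6 passed the signal filter in neither line, and Itgb8, whose pairing with alphav is known for activating TGF-beta, had 0.31 and 0.66. None of these passed a fold of 2.

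Itga9, which pairs with beta1 and binds tenascin-C and VCAM-1, was a Leydig-side chain. Its Sertoli inputs read 6.76, 6.51, 6.56, 6.82 and 6.72 and its Sertoli IPs 6.74, 6.91, 6.94, 6.91 and 6.78. Its Leydig inputs read 6.81, 6.94 and 6.94 and its Leydig IPs 8.11, 8.65 and 8.16. The 3 Leydig IPs stood above the other 13 saline arrays, a ratio of 2.67-fold (log2 ratio 1.42 ± 0.15 SE, adjusted p = 6.29e-05) against 1.13-fold (log2 ratio 0.18 ± 0.075 SE, adjusted p = 0.0491) in the Sertoli line. The lines differed by 1.24 ± 0.16 SE (adjusted p = 7.37e-06).

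Itga1, a collagen receptor chain, was depleted from both IPs. Before and after IP it read 9.16, 9.49, 9.38, 9.27 and 9.21 and 7.77, 7.93, 7.83, 7.92 and 7.81 in the Sertoli line, and 9.12, 9.16 and 9.09 and 7.51, 7.67 and 7.60 in the Leydig line. Every IP lay below every input, at 0.366-fold (log2 ratio -1.45 ± 0.072 SE, adjusted p = 3.64e-09) and 0.347-fold (log2 ratio -1.53 ± 0.074 SE, adjusted p = 1.18e-06). The other collagen receptor chains had log2 ratios in the Sertoli and Leydig lines of -0.25 and -0.30 for Itga2, 0.01 and 0.07 for Itga10, and -0.51 and -0.30 for Itga11, none past a fold of 2. Itga8, a nephronectin receptor chain, was -0.80 and -0.85, with IPs below inputs in both lines but short of that fold. Itga5, the fibronectin receptor chain, was 0.14 and 0.36.

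The chains of leukocyte integrins (Itgal, Itgam, Itgax, Itgad, Itgae, Itga4, Itgb2, Itgb7 and Itgb2l, 10 probe sets) held no call in either line. Their mean linear signals were already low in the inputs, around the filter of 50. They ran from 31.62 (Itgax) to 68.43 (Itgad) in the Sertoli line and from 30.64 (Itgax) to 79.64 (Itgad) in the Leydig line. At such signals a depletion may not be seen. In the Sertoli fit 7 were tested, with log2 ratios from -0.38 to 0.07, and in the Leydig fit 8 were tested, with log2 ratios from -0.56 to 0.18. Itgam, Itgax and Itgb6 did not pass the signal filter in either fit, nor did Itga4 in the Sertoli fit. The 2 probe sets of Itgad differed in sign in the Leydig line, at 0.18 and -0.34. Beside them, 6 of 12 macrophage and leukocyte markers were called lower in the Sertoli IPs and 1 higher (Mrc1), and 6 of 13 were lower in the Leydig IPs. The study also lists Mrc1 among receptors specific to or highly enriched in Sertoli cells.

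**Figure D2:**
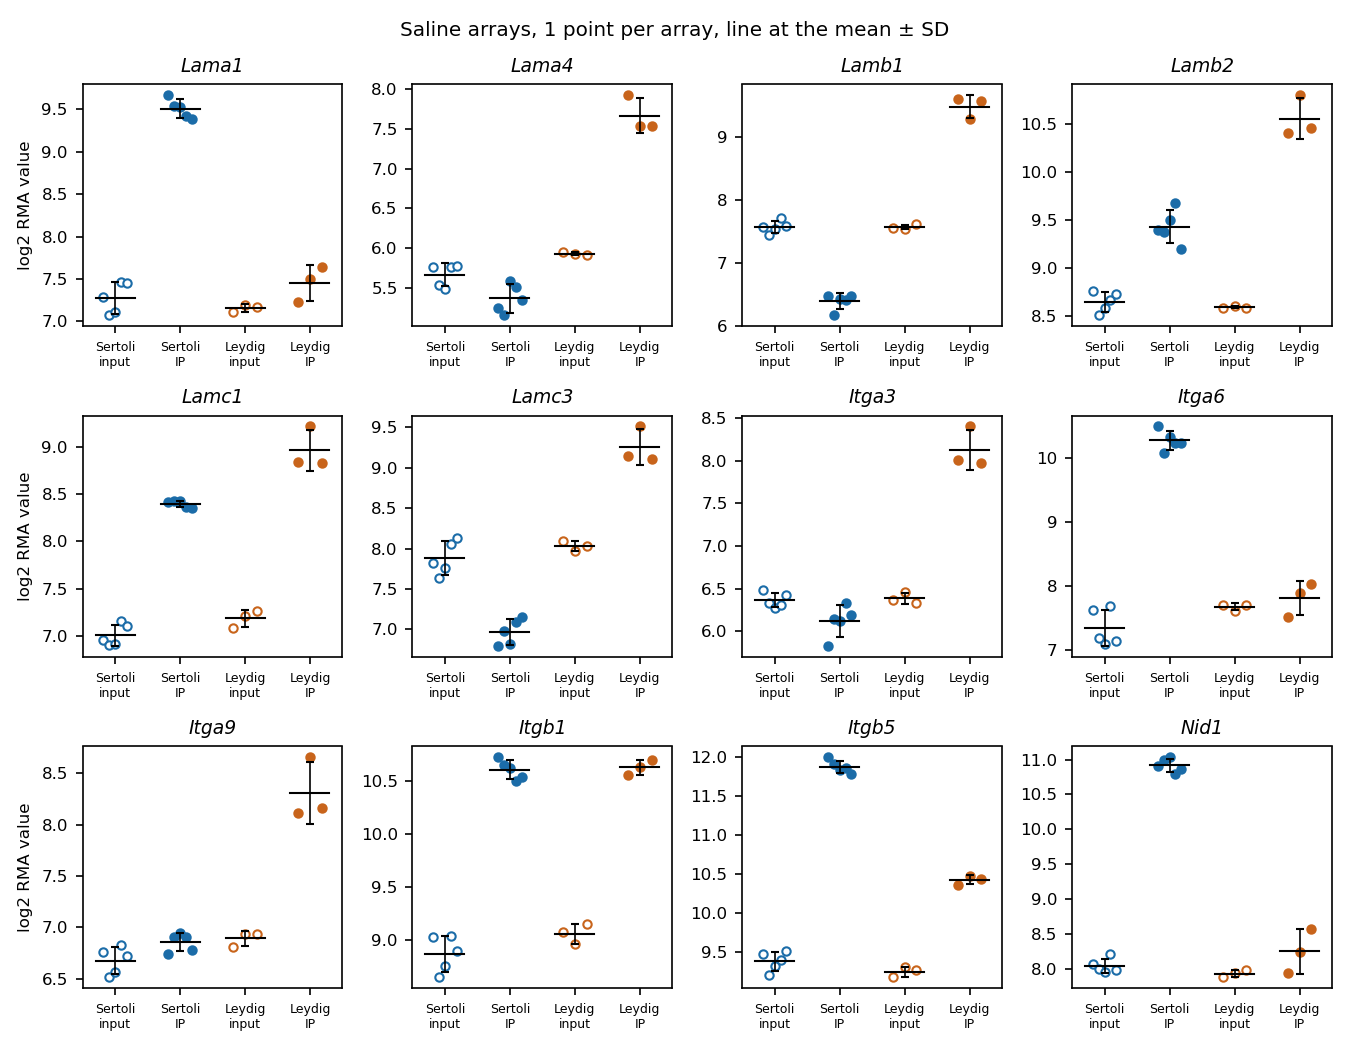
Log2 RMA value on the y axis for 12 members in the saline arrays, 1 point per array, open for inputs and filled for IPs, with the mean and SD in black. Each panel has its own y axis that does not start at 0. Lama1, Itga6 and Nid1 stand out in the Sertoli IPs, Lama4, Lamb1, Lamb2, Lamc3, Itga3 and Itga9 in the Leydig IPs, and Itgb1 and Lamc1 in both.

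Among the laminin chains, alpha1 and alpha3 were enriched in the Sertoli IPs and alpha4 in the Leydig IPs. Lama1, the alpha chain of the classical laminin of early basement membranes, read 7.28, 7.07, 7.11, 7.46 and 7.45 in the Sertoli inputs and 9.66, 9.54, 9.52, 9.42 and 9.38 in the Sertoli IPs. The Leydig inputs read 7.11, 7.20 and 7.17 and the Leydig IPs 7.23, 7.51 and 7.64. The Sertoli ratio was 4.69-fold (log2 ratio 2.23 ± 0.092 SE, adjusted p = 8.93e-10) and the Leydig ratio 1.23-fold (log2 ratio 0.30 ± 0.11 SE, adjusted p = 0.0485), and the difference was -1.94 ± 0.15 SE (adjusted p = 3.23e-08). Lama3, a chain described at the contact of Sertoli cells with spermatids, read 5.78, 5.71, 5.90, 5.79 and 6.0 against 7.15, 6.93, 7.19, 7.11 and 7.22 in the Sertoli line and 6.03, 5.82 and 5.87 against 6.23, 6.23 and 6.18 in the Leydig line. IPs exceeded inputs in both, at 2.44-fold (log2 ratio 1.28 ± 0.075 SE, adjusted p = 1.41e-08) and 1.24-fold (log2 ratio 0.31 ± 0.080 SE, adjusted p = 0.0103). Its difference between the lines, -0.98 ± 0.11 SE (adjusted p = 3.04e-06), was just short of a fold of 2.

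Lama4, an alpha chain known from vessel walls, had low signal outside the Leydig IPs. Before and after IP it read 5.77, 5.54, 5.48, 5.76 and 5.78 and 5.25, 5.15, 5.59, 5.51 and 5.34 in the Sertoli line, and 5.95, 5.92 and 5.91 and 7.92, 7.53 and 7.54 in the Leydig line. Only the 3 Leydig IPs stood apart, at 3.32-fold (log2 ratio 1.73 ± 0.11 SE, adjusted p = 5.32e-06), against 0.814-fold (log2 ratio -0.30 ± 0.096 SE, adjusted p = 0.0161) in the Sertoli line. The lines differed by 2.03 ± 0.16 SE (adjusted p = 3.14e-08). Of 8 endothelial marker probe sets tested in the Leydig fit 0 were called higher, and the list summed to 608 to 657 in the Leydig IPs against 781 to 829 in the inputs.

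Lama2, the alpha2 chain of muscle laminin, was depleted from the Sertoli IPs. It read 8.07, 7.94, 8.10, 8.14 and 8.05 against 6.80, 6.89, 6.77, 6.95 and 6.87, every IP below every input, at 0.434-fold (log2 ratio -1.21 ± 0.060 SE, adjusted p = 3.46e-09). In the Leydig line it read 8.19, 8.33 and 8.16 against 7.67, 7.96 and 7.55, at 0.707-fold (log2 ratio -0.50 ± 0.12 SE, adjusted p = 0.00615). Lama5, the alpha chain most common in adult basement membranes, had 0.884-fold (log2 ratio -0.18 ± 0.064 SE, adjusted p = 0.0268) and 0.86-fold (log2 ratio -0.22 ± 0.078 SE, adjusted p = 0.0406), neither near a fold of 2.

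Lamb1 moved in opposite directions in the 2 lines. This beta1 chain read 7.57, 7.44, 7.54, 7.71 and 7.58 in the Sertoli inputs and 6.47, 6.17, 6.44, 6.42 and 6.47 in the Sertoli IPs, every IP below every input. In the Leydig line it read 7.56, 7.54 and 7.61 in the inputs and 9.59, 9.27 and 9.56 in the IPs, every IP above every input. The ratios were 0.443-fold (log2 ratio -1.17 ± 0.075 SE, adjusted p = 3.06e-08) and 3.75-fold (log2 ratio 1.91 ± 0.099 SE, adjusted p = 1.65e-06). Their difference of 3.08 ± 0.12 SE (adjusted p = 2.14e-11) on the log2 scale was the widest of the 45 members tested. Lamb2, the beta2 chain, read 8.76, 8.50, 8.58, 8.66 and 8.72 against 9.39, 9.38, 9.49, 9.67 and 9.20 in the Sertoli line, and 8.58, 8.60 and 8.58 against 10.40, 10.79 and 10.45 in the Leydig line. IPs were above inputs in both, at 1.72-fold (log2 ratio 0.78 ± 0.088 SE, adjusted p = 5.78e-06) and 3.9-fold (log2 ratio 1.96 ± 0.11 SE, adjusted p = 2.39e-06), with only the Leydig ratio past a fold of 2 and a difference of 1.18 ± 0.15 SE (adjusted p = 6.15e-06). Lamb3, the beta3 chain of epithelial laminin, was at 0.891-fold (log2 ratio -0.17 ± 0.074 SE, adjusted p = 0.0656) and 0.719-fold (log2 ratio -0.48 ± 0.084 SE, adjusted p = 0.00148).

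Lamc1, the gamma1 chain found in most laminins, was enriched in both IPs. It read 6.96, 6.91, 6.92, 7.16 and 7.10 against 8.42, 8.42, 8.42, 8.36 and 8.35 in the Sertoli line and 7.09, 7.22 and 7.26 against 8.84, 9.21 and 8.83 in the Leydig line. The ratios were 2.61-fold (log2 ratio 1.39 ± 0.063 SE, adjusted p = 1.89e-09) and 3.41-fold (log2 ratio 1.77 ± 0.12 SE, adjusted p = 5.91e-06), and their difference of 0.38 ± 0.13 SE (adjusted p = 0.0246) fell short of a fold of 2. Lamc3, the gamma3 chain, read 7.82, 7.63, 7.77, 8.05 and 8.13 in the Sertoli inputs and 6.79, 6.98, 6.81, 7.09 and 7.15 in the Sertoli IPs. The Leydig inputs read 8.09, 7.97 and 8.03 and the Leydig IPs 9.15, 9.51 and 9.11. Sertoli IPs lay below their inputs, at 0.529-fold (log2 ratio -0.92 ± 0.11 SE, adjusted p = 8.56e-06), and Leydig IPs above theirs, at 2.33-fold (log2 ratio 1.22 ± 0.12 SE, adjusted p = 4.1e-05), a difference of 2.14 ± 0.17 SE (adjusted p = 4.99e-08). Of the chains of the trimer alpha3, beta3 and gamma3 described at the spermatid contact, the Sertoli IPs were thus called higher for Lama3 alone.

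The 2 nidogens parted in the same way. Nid1, which links laminin to collagen IV, read 8.06, 8.0, 7.96, 8.21 and 7.98 in the Sertoli inputs and 10.91, 10.99, 11.03, 10.79 and 10.87 in the Sertoli IPs. The Leydig inputs read 7.88, 7.94 and 7.98 and the Leydig IPs 7.94, 8.24 and 8.58. Every Sertoli IP exceeded every other saline array, at 7.33-fold (log2 ratio 2.87 ± 0.069 SE, adjusted p = 8.21e-11), while the Leydig groups overlapped, at 1.25-fold (log2 ratio 0.32 ± 0.15 SE, adjusted p = 0.102). The difference was -2.56 ± 0.16 SE (adjusted p = 1.76e-09). In the Sertoli line Nid2 read 7.82, 7.47, 7.42, 7.46 and 7.49 before and 6.90, 6.77, 6.71, 7.0 and 6.65 after IP. In the Leydig line it read 7.84, 7.79 and 7.74 before and 8.26, 8.53 and 8.49 after. Neither ratio passed a fold of 2, at 0.606-fold (log2 ratio -0.72 ± 0.093 SE, adjusted p = 1.89e-05) and 1.55-fold (log2 ratio 0.63 ± 0.091 SE, adjusted p = 0.000464). They lay on opposite sides of 1, and their difference was called, at 1.36 ± 0.14 SE (adjusted p = 9.69e-07).

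None of the 6 collagen IV genes was called in either line, with log2 ratios from -0.39 to 0.50 in the Sertoli IPs and from -0.32 to 0.58 in the Leydig IPs. The genes lie in pairs that run in opposite directions from neighbouring starts. By the RefSeq starts used here (GRCm38.p6), Col4a1 and Col4a2 on chromosome 8 overlap at their 5′ ends, with starts 21 bases apart. The starts of Col4a5 and Col4a6 on chromosome X lie 1343 bases apart without overlap. Col4a1 read 7.02, 7.07, 7.22, 7.20 and 7.23 against 7.19, 7.06, 7.16, 7.27 and 7.37 in the Sertoli line and 7.19, 7.09 and 7.06 against 7.58, 7.96 and 7.55 in the Leydig line. Its partner Col4a2 read 6.99, 7.14, 7.05, 7.24 and 7.10 against 6.62, 6.60, 6.59, 6.84 and 6.92 and 7.09, 7.08 and 7.08 against 7.54, 7.74 and 7.45. Leydig IPs were above their inputs for both, at 1.49-fold (log2 ratio 0.58 ± 0.12 SE, adjusted p = 0.00341) and 1.41-fold (log2 ratio 0.49 ± 0.090 SE, adjusted p = 0.00173), while the Sertoli ratios were 1.04 and 0.765.

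Col4a3 and Col4a4, chains known from kidney and testis, leaned the other way. Col4a3 read 6.49, 6.55, 6.65, 6.61 and 6.85 against 7.03, 7.24, 7.06, 7.14 and 7.16 in the Sertoli line and 6.41, 6.54 and 6.37 against 6.54, 6.58 and 6.45 in the Leydig line. Col4a4 read 7.24, 7.22, 7.24, 7.45 and 7.53 against 7.74, 7.66, 7.67, 7.78 and 7.79 and 7.46, 7.30 and 7.46 against 7.10, 7.18 and 6.98. Every Sertoli IP was above every Sertoli input for both, at 1.41-fold (log2 ratio 0.50 ± 0.074 SE, adjusted p = 6.71e-05) and 1.31-fold (log2 ratio 0.39 ± 0.073 SE, adjusted p = 0.000425), below a fold of 2. The Leydig log2 ratios were 0.08 and -0.32. Col4a5 read 6.38, 6.32, 6.20, 6.24 and 6.54 against 5.94, 6.11, 6.27, 6.44 and 6.50 and 6.49, 6.31 and 6.42 against 6.87, 7.07 and 6.84, with log2 ratios of -0.08 and 0.52. Col4a6 read 5.99, 5.97, 6.05, 5.80 and 6.12 against 5.97, 6.17, 5.99, 6.33 and 6.46 and 6.10, 5.95 and 5.95 against 6.39, 6.41 and 6.15, with 0.20 and 0.32. Hspg2, the heparan sulfate proteoglycan perlecan, read 7.39, 7.45, 7.49, 7.62 and 7.71 against 7.84, 7.73, 7.75, 8.20 and 7.93 in the Sertoli line and 7.55, 7.55 and 7.65 against 8.44, 8.91 and 8.25 in the Leydig line. IPs exceeded inputs in both, at 1.28-fold (log2 ratio 0.36 ± 0.098 SE, adjusted p = 0.00602) and 1.94-fold (log2 ratio 0.96 ± 0.16 SE, adjusted p = 0.00106), the latter just short of a fold of 2.

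Itgb3bp, the nuclear protein gene, was called lower in both IPs. Before and after IP it read 7.63, 7.96, 7.98, 8.06 and 7.89 and 5.31, 5.75, 5.89, 5.81 and 5.73 in the Sertoli line, and 8.0, 7.42 and 7.90 and 5.93, 5.82 and 5.56 in the Leydig line. The ratios were 0.216-fold (log2 ratio -2.21 ± 0.11 SE, adjusted p = 4.95e-09) and 0.249-fold (log2 ratio -2.0 ± 0.17 SE, adjusted p = 1.84e-05).

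Sequence before the annotated start is shown for 4 integrin and nidogen genes that represent 3 patterns: Nid1 and Itgb5, with higher ratios in the Sertoli line, Itgb1, enriched in both, and Itga1, depleted from both. Each is the 250 bases before the RefSeq start (GRCm38.p6), 5′ to 3′ on the gene's strand, from chr13:13437352-13437601 (plus strand), chr16:33829415-33829664 (plus), chr8:128685404-128685653 (plus) and chr13:115101965-115102214 (minus). Capitals mark matches on either strand to a GC box (GGGCGG) or a CCAAT box (CCAAT).
Nid1: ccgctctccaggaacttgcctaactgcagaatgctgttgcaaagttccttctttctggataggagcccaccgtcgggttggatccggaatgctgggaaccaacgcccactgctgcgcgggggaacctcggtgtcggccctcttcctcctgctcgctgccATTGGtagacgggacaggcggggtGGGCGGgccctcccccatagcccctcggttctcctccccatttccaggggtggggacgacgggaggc
Itgb5: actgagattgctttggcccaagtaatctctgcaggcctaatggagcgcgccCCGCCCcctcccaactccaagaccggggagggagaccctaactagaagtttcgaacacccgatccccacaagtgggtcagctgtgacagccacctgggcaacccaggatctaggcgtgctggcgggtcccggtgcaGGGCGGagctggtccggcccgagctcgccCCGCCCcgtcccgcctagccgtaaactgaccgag
Itgb1: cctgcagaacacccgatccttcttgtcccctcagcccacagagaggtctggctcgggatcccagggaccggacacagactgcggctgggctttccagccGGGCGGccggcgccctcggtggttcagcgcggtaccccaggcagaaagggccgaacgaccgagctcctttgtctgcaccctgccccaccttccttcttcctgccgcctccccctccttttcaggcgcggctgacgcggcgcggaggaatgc
Itga1: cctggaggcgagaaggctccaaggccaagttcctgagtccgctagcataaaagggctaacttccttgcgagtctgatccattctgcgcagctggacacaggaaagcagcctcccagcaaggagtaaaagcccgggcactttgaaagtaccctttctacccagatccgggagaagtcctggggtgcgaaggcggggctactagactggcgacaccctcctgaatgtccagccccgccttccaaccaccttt
The Itgb5 window held 3 GC boxes, Nid1 a GC box and a CCAAT box, Itgb1 a GC box and Itga1 no match. The 2 motifs do not overlap in these windows. Of the 47 genes 32 had an entry, with 35 windows in all, and 14 of the 35 (40%) held a GC box against 32.7% of all 32851 windows of that length. A CCAAT box was in 8 of the 35 (22.9%) against 33.8% of all. TATAAA was in 0 of the 35 against 12.4%, AGGTCA, a nuclear receptor binding motif, in 2 of the 35 (5.71%) against 14%, and TGACGTCA, the cyclic AMP response element, in 0 of the 35 against 1.55%. The median GC content was 58.4% in the members' windows and 52.4% in all. Itga6, Lama1, Lama3, Lama4, Lamc1, Lamc3 and Nid2 have no entry.

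Other genes of the pathway were counted from lists by role, and the genes named are examples from each list. The lists were drawn up with earlier results of these data known, so their shares are descriptive only. Of all probe sets tested, 12.4% were called higher and 11.7% lower in the Sertoli line, and 11.0% and 10.7% in the Leydig line. The list of laminin and collagen receptors other than integrins had 17 probe sets tested. In the Sertoli line 4 (23.5%) were called higher and in the Leydig line 6 (35.3%), and none lower. The median ratios of that list were 0.77-fold and 1.10-fold. Dag1, the dystroglycan that binds laminin, was called in both, at 3.96-fold and 2.95-fold. The collagen receptors Ddr1 and Ddr2 parted, with Ddr1 at 3.54-fold in the Sertoli and 1.18-fold in the Leydig line and Ddr2 at 0.677-fold and 5.55-fold. The syndecan Sdc4 was at 5.06-fold and 1.48-fold and Sdc1 at 1.16-fold and 3.51-fold.

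Of 28 probe sets for integrin adaptors and focal adhesion proteins, 12 (42.9%) were called higher and 5 (17.9%) lower in the Sertoli IPs. In the Leydig IPs 9 (32.1%) were called higher and 1 (3.57%) lower. The median ratios of that list were 1.49-fold and 1.27-fold. Talin (Tln1), which activates integrins, was called in both, at 2.93-fold and 4.24-fold, as was kindlin-2 (Fermt2), at 2.7-fold and 3.5-fold. Higher in the Sertoli line by the interaction test were the focal adhesion proteins vinculin (Vcl, 5.33-fold and 1.19-fold), zyxin (Zyx, 4.48-fold and 1.3-fold) and paxillin (Pxn, 2.52-fold and 0.918-fold), with Tns3, Bcar1, Parvb and Ptk2b. Higher in the Leydig line were Actn4 (0.707-fold and 2.67-fold), Fermt3, Parva and 2 of the 6 probe sets of Tns1, which disagreed among themselves.

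Of 21 probe sets for other basement membrane components, 5 (23.8%) were called higher and 2 (9.52%) lower in the Sertoli IPs. In the Leydig IPs 4 (19%) were called higher and none lower. The median ratios of that list were 0.979-fold and 1.02-fold. Col18a1, the collagen from which endostatin is cut, was at 4.23-fold and 1.02-fold, and Ntn4, a laminin-like netrin, at 3.29-fold and 1.07-fold. Smoc1, a calcium-binding matrix protein, was at 0.479-fold and 8.7-fold. Sparc, a collagen-binding glycoprotein, was called in both, at 3.87-fold and 3.12-fold. Of 13 other integrin ligands tested in the Sertoli fit 4 (30.8%) were called higher (Mfge8, Tgfb1, Tgfb3 and Thbs1) and 1 (7.69%) lower (Vcam1). Of 12 in the Leydig fit 2 (16.7%) were called higher (Fn1 and Vcam1). The median ratios of that list were 1.04-fold and 1.15-fold. Vcam1, a ligand of alpha9 integrin, was at 0.29-fold in the Sertoli and 9.23-fold in the Leydig line. Mfge8, a ligand of alphav with beta5, was at 6.3-fold and 1.85-fold.

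Of 13 genes for assembly and crosslinking of collagen IV, 6 (46.2%) were called higher and 1 (7.69%) lower in the Sertoli IPs. In the Leydig IPs 3 (23.1%) were called higher and none lower. The median ratios of that list were 1.38-fold and 1.28-fold. The hydroxylases P4ha1 and Plod2 were called in both, at 5.72-fold and 2.95-fold and at 3.48-fold and 5.58-fold. That Sertoli count includes Tango6, a transport gene that is not known as a collagen chaperone. Pxdn, the peroxidasin that crosslinks collagen IV, was at 0.938-fold and 0.858-fold. Of 14 matrix proteases and inhibitors 7 (50%) were called higher in each IP, among them Mmp14 (6.58-fold and 2.42-fold), Adam10, Timp2 and Timp3 in both. In the Sertoli IPs 1 (7.14%) was called lower (Adamts5). The median ratios of that list were 2.055-fold and 1.63-fold. Plat, the tissue plasminogen activator, was at 7.44-fold and 1.18-fold.

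Suppression of gonadotropins and hormone replacement were examined in the IPs, at a fold of at least 1.5. In the Leydig IPs acyline against saline called 0 of 42 members by limma, beside 0.143% of all 24461 probe sets tested. At an unadjusted p under 0.05, 4 of the 42 (9.52%) passed, beside 13.7% of all. The widest difference was that of Itga9, which read 8.11, 8.65 and 8.16 after saline and 9.07 and 9.39 after acyline, with no overlap and a log2 difference of 0.92 ± 0.18 SE (adjusted p = 0.103). Lama4 read 7.92, 7.53 and 7.54 and 8.39 and 8.26, with 0.66 ± 0.16 SE (adjusted p = 0.16). Lamc1 read 8.84, 9.21 and 8.83 and 9.15 and 9.52, which overlapped, with 0.38 ± 0.18 SE (adjusted p = 0.395). Without acyline array 2 that Lamc1 difference was 0.193. Itga6 differed by -0.45 ± 0.18 SE (adjusted p = 0.319) and Itgb4 by 0.27 ± 0.11 SE (adjusted p = 0.319). With 2 arrays after acyline, none of these was past the adjusted p.

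LH for 1 h against acyline called 0 of 42, beside 0.00818% of all, with 1 of 42 (2.38%) at an unadjusted p under 0.05 beside 6.06% of all. That was Lama4, which read 8.85 and 8.73 after LH for 1 h, a difference of 0.47 ± 0.18 SE (adjusted p = 0.809). LH for 4 h also called 0 of 42, beside 0.613% of all, with 8 of 42 (19%) at an unadjusted p under 0.05 beside 18.3% of all. All 8 were lower after LH. The medians over all probe sets were 6.397 to 6.408 in the arrays after LH for 4 h and 6.466 to 6.484 in those after acyline. Over the probe sets that were tested, the median log2 difference was -0.004, and over the 42 members it was -0.06. The part of the shift in array medians in the 8 differences was not tested. Itga9 read 8.19 and 8.45 after LH for 4 h, both arrays below those after acyline (9.07 and 9.39) and inside the range after saline, with a difference of -0.91 ± 0.20 SE (adjusted p = 0.0788). Itgb8 read 7.15, 6.66 and 7.04 after saline, 6.84 and 6.96 after acyline, 7.21 and 6.92 after LH for 1 h and 6.11 and 5.95 after LH for 4 h. The last pair lay below the other 7 Leydig IPs, with a difference of -0.87 ± 0.17 SE (adjusted p = 0.0675).

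Lamc1 read 9.16 and 9.12 after LH for 1 h and 8.93 and 8.50 after 4 h, a difference at 4 h of -0.62 ± 0.19 SE (adjusted p = 0.161), which was -0.401 without LH array 2. Itgb5 read 10.29 and 10.45 after acyline and 9.94 and 10.05 after LH for 4 h, a difference of -0.37 ± 0.12 SE (adjusted p = 0.173). The other 4 were Itga7 (-0.30), Itgb4 (-0.38), Itgb3 (-0.29) and Col4a4 (-0.27). The acyline and LH comparisons share the 2 acyline arrays. Beside these values, the 8 Leydig markers summed to 41292 to 43972 after acyline, 42506 to 45415 after LH for 1 h and 47326 to 55072 after LH for 4 h, against 52993 to 54796 after saline. The spermatogonia and spermatocyte list summed to 10003 to 10633 after acyline and 7803 to 9421 after LH for 4 h. Its median log2 difference was 0.04, and Kit, which was higher in the Leydig IPs than in their inputs, was its only call, lower after LH. The part of germ cells in these values was not tested.

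**Figure D3:**
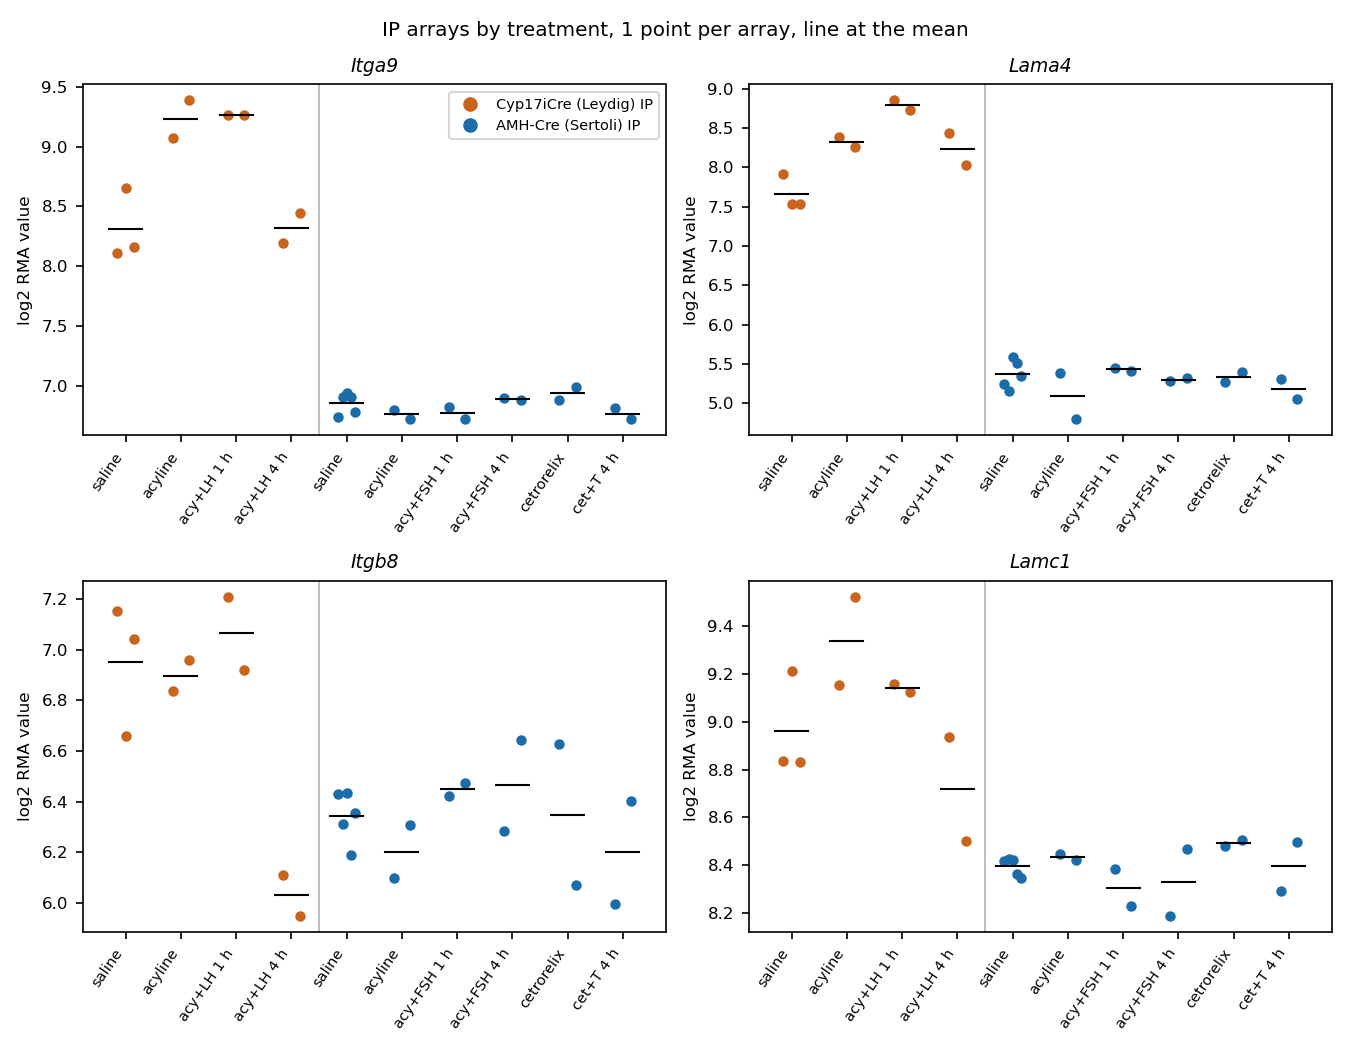
Log2 RMA value on the y axis in every IP array for Itga9, Lama4, Itgb8 and Lamc1, by treatment, 1 point per array with the mean as a line, orange for the Leydig and blue for the Sertoli IPs (acy, acyline; cet, cetrorelix; T, testosterone). The y axes do not start at 0. In the Leydig IPs Itga9 is higher after acyline and after LH for 1 h than after saline or LH for 4 h, and the Sertoli IPs stay near 6.8.

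In the Sertoli IPs no member was called by limma in any of the 5 hormone comparisons. By the study's account residual FSH remained after the antagonists, so these comparisons do not cover a complete loss of FSH. Of 44 members tested in each, 0 passed for acyline (beside 0.00406% of all 24648 probe sets), 0 for cetrorelix (0.0122%), 0 for FSH at 1 h (0%), 0 for FSH at 4 h (0.0203%) and 0 for testosterone (0.00406%). At an unadjusted p under 0.05 there were 0, 1, 1, 0 and 2 of the 44 (0, 2.27, 2.27, 0 and 4.55%), beside 5.01, 4.99, 9.43, 4.4 and 5.01% of all. Counts of 0 to 2 are too small to set the members apart from all probe sets, and the comparisons share arrays. Lama3 read 7.15, 6.93, 7.19, 7.11 and 7.22 after saline, 7.56 and 7.28 after cetrorelix and 7.05 and 6.91 after cetrorelix with testosterone. Both cetrorelix arrays lay above every saline and testosterone array, with differences of 0.30 ± 0.11 SE (adjusted p = 0.933) from saline and -0.45 ± 0.14 SE (adjusted p = 0.93) for testosterone, which share the 2 cetrorelix arrays. Nid2 read 6.59 and 6.53 after acyline and 6.89 and 7.05 after FSH for 1 h, a difference of 0.41 ± 0.18 SE (adjusted p = 0.522), in arrays where the spermatogonia and spermatocyte list summed to 5089 to 5191 and 6097 to 8052 and had a median log2 difference of 0.37, and the part of such cells in the Nid2 value was not tested. Itga10 differed by -0.24 ± 0.10 SE (adjusted p = 0.93) for testosterone. For the chains enriched in these IPs, the log2 differences after acyline against saline were 0.04 for Itga6, -0.11 for Nid1, -0.01 for Itgb5, 0.10 for Lama1 and -0.04 for Itgb1, with SEs of 0.12, 0.11, 0.081, 0.10 and 0.098.

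**Figure D4:**
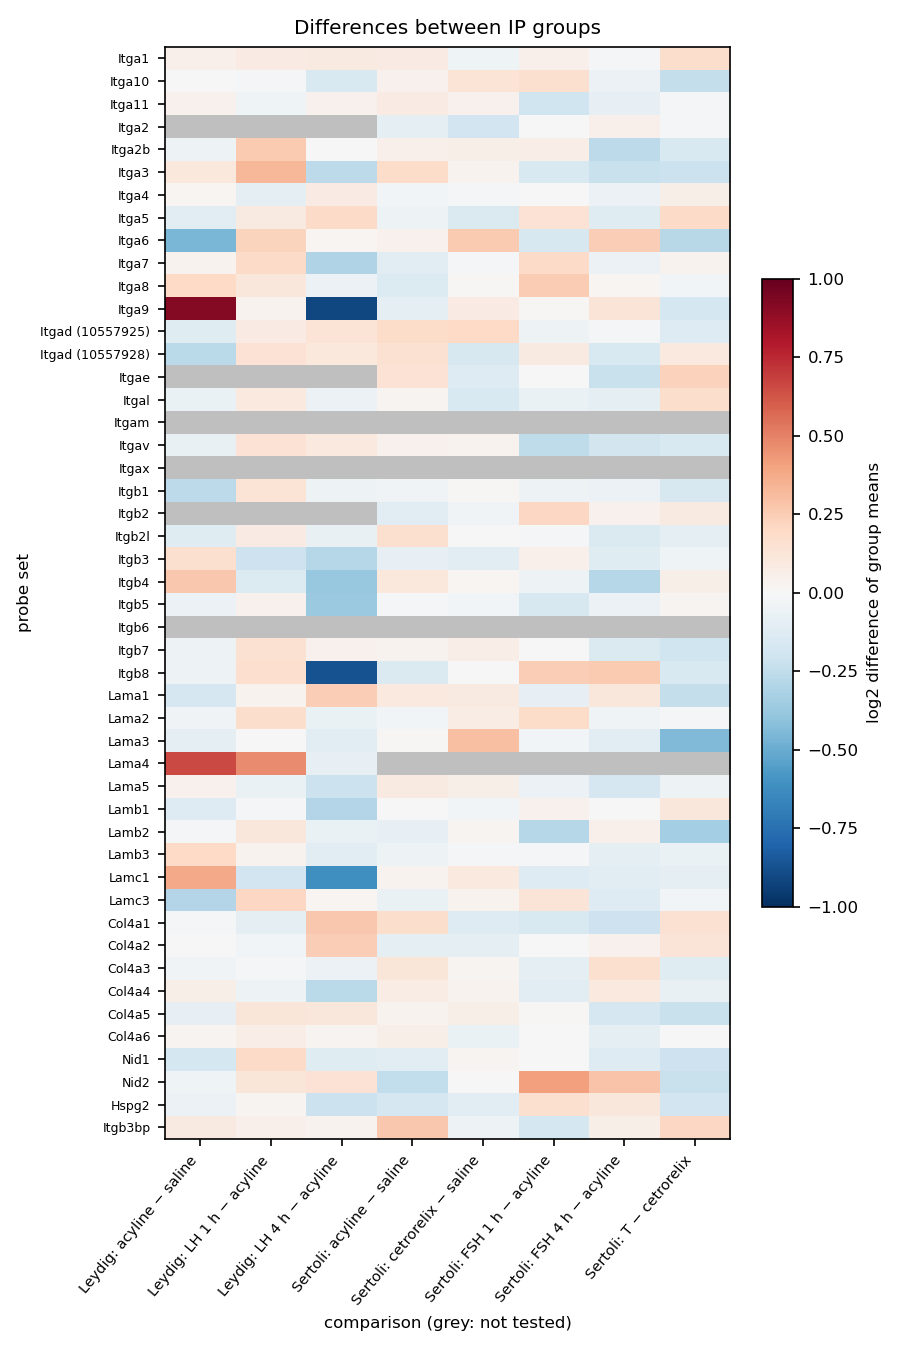
Log2 difference between IP groups for each probe set (rows) in the 8 hormone comparisons (columns), red for higher and blue for lower, grey where the probe set was not tested. None of the cells passed the adjusted p, and the deepest colours are Itga9 (0.92 after acyline, -0.91 after LH for 4 h) and Itgb8 (-0.87 after LH for 4 h) in the Leydig columns.

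Whether the acyline effect differed between the Cre lines was tested over the 24 IPs. Of 45 members 1 was called, beside 0.0669% of all 25399 probe sets. Itga9 differed by 1.02 ± 0.18 SE (adjusted p = 0.0431), with the Leydig arrays as above and Sertoli arrays of 6.74, 6.91, 6.94, 6.91 and 6.78 after saline and 6.80 and 6.72 after acyline. Lama4 differed by 0.94 ± 0.23 SE (adjusted p = 0.171). The Itga9 call was lost without Leydig acyline array 2 (adjusted p = 0.276), Leydig saline array 1 (0.0889) or 3 (0.135), Sertoli acyline array 1 (0.159) or 2 (0.215), or Sertoli saline array 2 (0.0862), 3 (0.0696), 4 (0.073) or 5 (0.0549), with the log2 difference between 0.86 and 1.19 over all 12 arrays left out in turn. The acyline courses also differed, at 4 days in the Leydig and 3 days in the Sertoli line, and that cannot be told apart from the Cre line here.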

How the data were processed

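The deposited log2 values per probe set come from RMA as run by the authors, per the labels and their processing notes (no version stated), from about 100 ng of RNA per sample before amplification. No raw array file was used. Groups came from the titles, treatments and sample types. Symbols came from the platform annotation: of 35556 probe sets 21789 name 1 symbol, 1621 several, and 12146 are unlisted there. The members and lists were chosen with earlier results of these data known.

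Probe sets with a linear signal over 50 in at least 1 array of a fit were tested in R 4.3.3 with limma 3.58.1 (moderated contrasts, group means only, Benjamini-Hochberg over all tested), checked on simulated data. A call took a fold of 2 for IP against input, or 1.5 between IPs, with an adjusted p under 0.05. Hormone effects were fitted over all IPs of a line. The methods put n at 2 animals for the arrays of the FSH and testosterone experiments, and name inputs that belong to the saline IPs. The study's lists of enriched genes give saline-treated mice as n = 5 for AMH-Cre and n = 3 for Cyp17iCre, the same as the saline arrays. For the Leydig acyline and LH groups no source used here says that each array is a separate animal. Their p-values therefore measure the spread between arrays. The number of arrays limits the precision. Alternatives were no filter, median centering, quantile normalization, unmoderated contrasts with and without adjustment, a replicate block, only the groups compared, Sertoli saline replicates 1 to 3, and each array left out.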

Additional observations from a re-analysis of the deposited data

Results flagged for a closer look

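Within groups of 5 arrays, 4 values of members stood apart from the rest of their group by Dixon's test, of 96 groups tested (4.17%), where chance gives about 1 in 20. They were Nid2 in Sertoli input replicate 1 (7.82, next 7.49), Itgal in Sertoli input replicate 5 (5.64, next 5.76), Lamb1 in Sertoli IP replicate 2 (6.17, next 6.42) and Itgb3bp in Sertoli IP replicate 1 (5.31, next 5.73). None of these values closed the gap between IP and input for Nid2, Lamb1 or Itgb3bp.

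The ratio of IP to input differed between the Cre lines by the interaction test for 11 members, given as log2 difference, Leydig minus Sertoli. Higher in the Leydig line were Lamb1 (3.08), Lamc3 (2.14), Lama4 (2.03), Itga3 (1.98), Nid2 (1.36), Itga9 (1.24) and Lamb2 (1.18). Higher in the Sertoli line were Itgb5 (-1.31), Lama1 (-1.94), Nid1 (-2.56) and Itga6 (-2.80).

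The acyline effect differed between the lines for Itga9, by 1.02 ± 0.18 SE (adjusted p = 0.0431 by limma), with both Leydig acyline arrays above all 3 Leydig saline arrays. That call rests on single arrays, as given beside it above.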

How the results depend on the processing

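With each array left out in turn, the Sertoli enrichment had 8 members higher and 4 lower, the Leydig enrichment had 10 to 11 higher and 2 lower, and their difference had 7 higher and 4 to 5 lower. The hormone comparisons had 0 members called in each direction, apart from the difference of acyline effects, which had 0 to 1 higher. That count was 0 without the filter, with median-centered arrays, with an unmoderated contrast after adjustment, with a replicate block, with only the groups compared, and with Sertoli saline replicates 1 to 3. Without adjustment, the unmoderated contrast called 2 members higher in the difference of acyline effects (Itga9 and Lama4), 2 higher after acyline in the Leydig IPs (Itga9 and Lama4) and 3 lower after LH for 4 h (Itga9, Itgb8 and Lamc1). Small differences changed sign without 1 array: Itgb8 after acyline in the Leydig IPs ranged from -0.199 to 0.047 (0.008 without acyline replicate 1 and 0.047 without saline replicate 1), its difference of acyline effects from -0.057 to 0.193 (-0.057 without Leydig saline replicate 2 and -0.015 without Sertoli acyline replicate 1), and Lama4 after LH for 4 h from -0.288 to 0.121 (0.121 without LH replicate 2). The causes of these changes were not tested.

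Same-numbered arrays did not deviate together throughout (correlations of -0.035 to 0.14 between Sertoli saline IPs and inputs and of 0.026 to 0.15 in the Leydig line), and no source used here says that the numbers link a saline IP to its own input, so they were not taken as pairs. With the replicate block the Itga9 difference of acyline effects was 0.91 (adjusted p = 0.246), calls over all probe sets went from 35 to 0 for acyline and from 150 to 4 for LH at 4 h in the Leydig IPs, and from 17 to 5 for the difference of acyline effects, while members called elsewhere stayed the same in number. With the numbers crossed, an alternative chosen after seeing the data, LH for 4 h and testosterone each called 0 members. The 2 arrays in most hormone groups limit what could be called.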
